A study of Mus musculus with 14 samples.

Results

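Tumours of the melanoma subline Res 499 were compared with control tumours over all genes of a mouse array. The comparison took every Res 499 tumour and every control tumour measured on the same array design, which was 11 of the 14 tumours in the study, 7 of Res 499 and 4 of the control. All were grown from B16-F10, a transplantable mouse melanoma line that makes pigment, for which the labels name C57BL/6 mice as hosts. Per the labels, B16-F10 cells in Matrigel were placed on the right flank and later on the left flank. The right flank tumour was given 20 Gy on day 8, and the CTLA4 antibody 9H10 followed a schedule of day 5, day 8 and day 11. CTLA4 is an inhibitory receptor of T cells, and its blockade releases T cell responses. Res 499 was derived from a tumour outside the radiation field that withstood this treatment or came back after it, and its response is labelled resistant, against sensitive for the control. The 7 Res 499 tumours therefore share 1 subline as their source and do not show how much sublines vary. The labels used here do not give the age of the mice or say whether a profiled tumour had itself received the therapy. Nor do they tie each tumour to a mouse of its own, so p-values here reflect only how these tumours varied, and that variation may be technical. A single tumour of another resistant subline, Res 177, shared the array design and the fit.

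Whole tumours hold melanoma cells together with the leukocytes, fibroblasts and vessels of the host. Tumour cells that sense interferon switch on a set of genes that includes antiviral enzymes, chemokines that call in T cells, antigen presentation genes and the PD-1 ligand Cd274. In melanocytes and melanoma cells, growth factor signals run through the MAPK cascade, which switches on Etv transcription factors together with Dusp, Spry and Spred proteins that dampen the cascade. Pigment is made in melanosomes, organelles related to lysosomes, which share proton pumps, proteases and trafficking proteins with them.

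Levels are log2 expression values, so that a difference of 1 is a doubling, and each change is the Res 499 mean minus the control mean with its standard error (SE) from limma. A gene passed the test at an adjusted p under 0.05 (limma, Benjamini-Hochberg over the 16635 genes tested). The 12 arrays of the fit had medians between 5.70 and 5.80 and correlated with each other at 0.977 to 0.993. Over all tested genes the median change was 0.01, 51.7% of changes were above 0, and the median SE was 0.10. Within a group, the median SD of a gene was 0.13 in control tumours and 0.15 in Res 499 tumours. The pigment cell identity of both groups was seen in Pmel, a melanosome matrix protein, at 13.18 to 13.35 in control and 13.28 to 13.48 in Res 499 tumours, and in Dct, a pigment enzyme, at 13.71 to 13.75 and 13.49 to 13.80.

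In Res 499 tumours 59 genes passed the test, 0.355% of those tested, of which 24 were higher (0.144%) and 35 were lower (0.210%). At an unadjusted p under 0.05 the number was 2159. The shares of 0.144% and 0.210% serve as background for every count below of list members that passed. The changes that passed were 0.31 to 1.85 in size, with a median of 0.74, and 9 were at least 1. In 58 of the 59 genes the lowest tumour of one group lay above the highest of the other, with Lpar4 as the exception. Over all tested genes, ranges were apart in this way for 2.39%. The 59 were picked by a test on these same tumours, so their larger share largely follows from that choice. The number of genes depended on single tumours: leaving out each tumour in turn gave between 6 genes (without control tumour 4) and 196 genes (without Res 499 tumour 2). No gene of the 59 changed direction in any of these fits, but for the 58 with ranges apart no other outcome was possible.

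**Figure D1:**
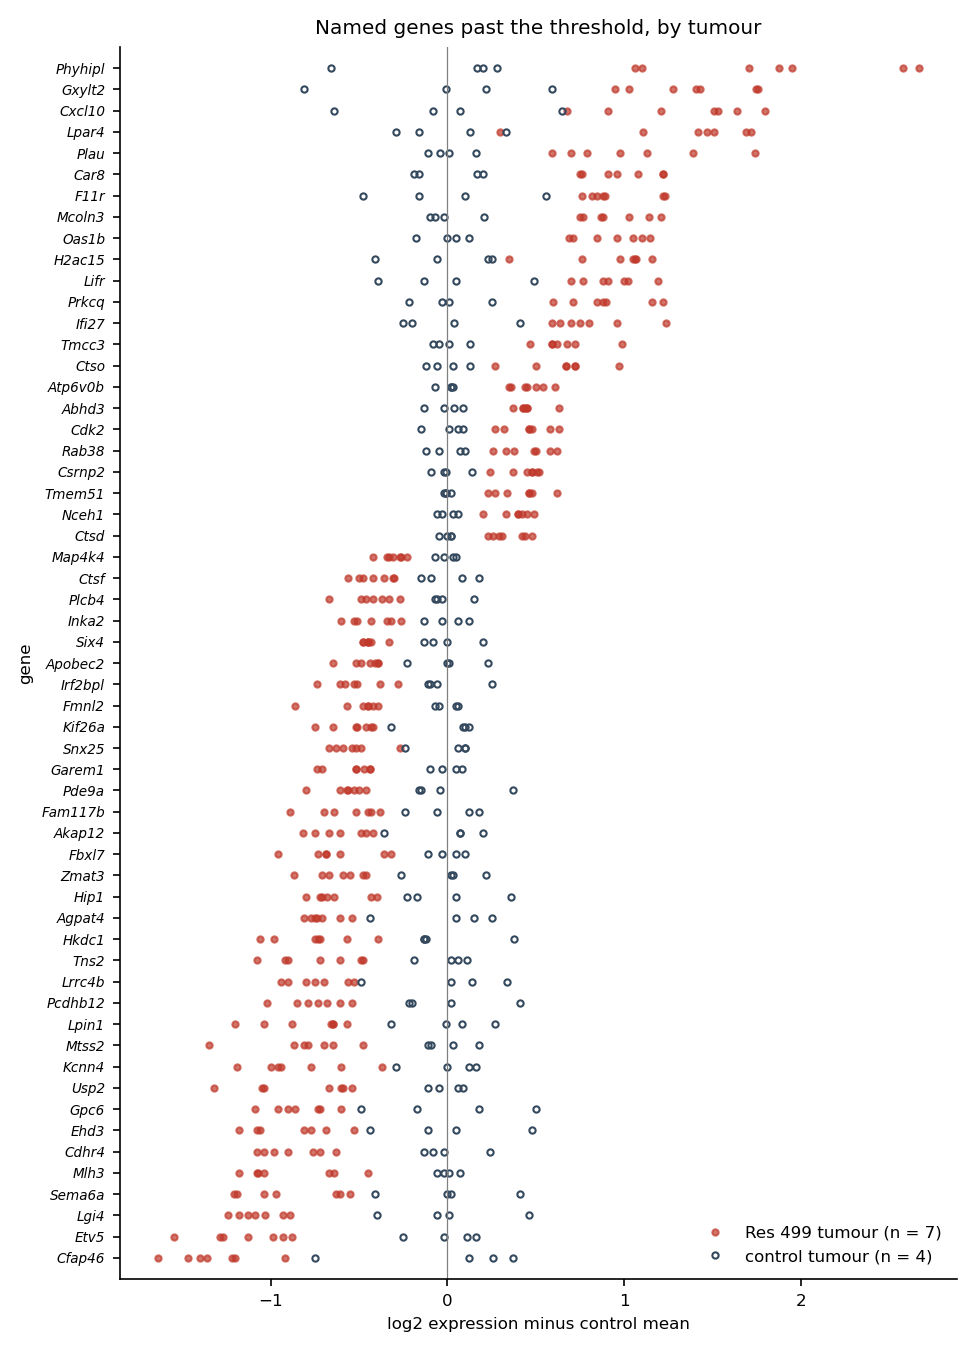
Log2 expression minus the control mean (x axis) in each tumour for the named genes that passed the test (y axis), ordered by change, with filled points for 7 Res 499 tumours and open points for 4 control tumours. Phyhipl has the highest change at 1.85 and Cfap46 the lowest at -1.32, and Lpar4 is the gene in which the groups overlap.

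Across all 11 fits that each left out 1 tumour, 6 genes passed the test every time: Mcoln3, Oas1b and Car8 were higher, and Etv5, Cdhr4 and Lgi4 were lower. Mcoln3 encodes mucolipin 3, a calcium-permeable channel of endosomes and lysosomes. Its levels in control tumours 2 to 5 were 8.90, 8.85, 8.82 and 9.13, against a lowest, median and highest of 9.67, 9.80 and 10.13 in Res 499 tumours. Every Res 499 tumour thus lay above every control tumour, with a change of 0.95 (SE 0.10, limma adjusted p = 0.00445), or 1.93-fold. Over the leave-one-out fits and the other settings tried its change stayed between 0.89 and 1.01. Car8 encodes a protein of the carbonic anhydrase family that lacks the enzyme activity and binds the inositol trisphosphate receptor, a calcium channel of the endoplasmic reticulum. Its levels were 6.77, 6.41, 6.74 and 6.38 in control tumours and 7.32, 7.53 and 7.79 as the lowest, median and highest in Res 499. The groups were apart, and the change was 0.98 (SE 0.12, limma adjusted p = 0.00595). Cdhr4, a cadherin-related membrane protein, stood at 9.21, 9.15, 9.47 and 9.10 in control tumours and at 8.15, 8.33 and 8.60 as the lowest, median and highest in Res 499. All Res 499 tumours were below all controls, with a change of -0.88 (SE 0.10, limma adjusted p = 0.00589). Lgi4, a secreted protein that takes part in the myelination of peripheral nerves, stood at 6.99, 7.06, 7.51 and 6.65 in control tumours and at 5.81, 5.96 and 6.16 as the lowest, median and highest in Res 499. The change of Lgi4 was -1.07 (SE 0.13, limma adjusted p = 0.00636), again with the groups apart.

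**Figure D2:**
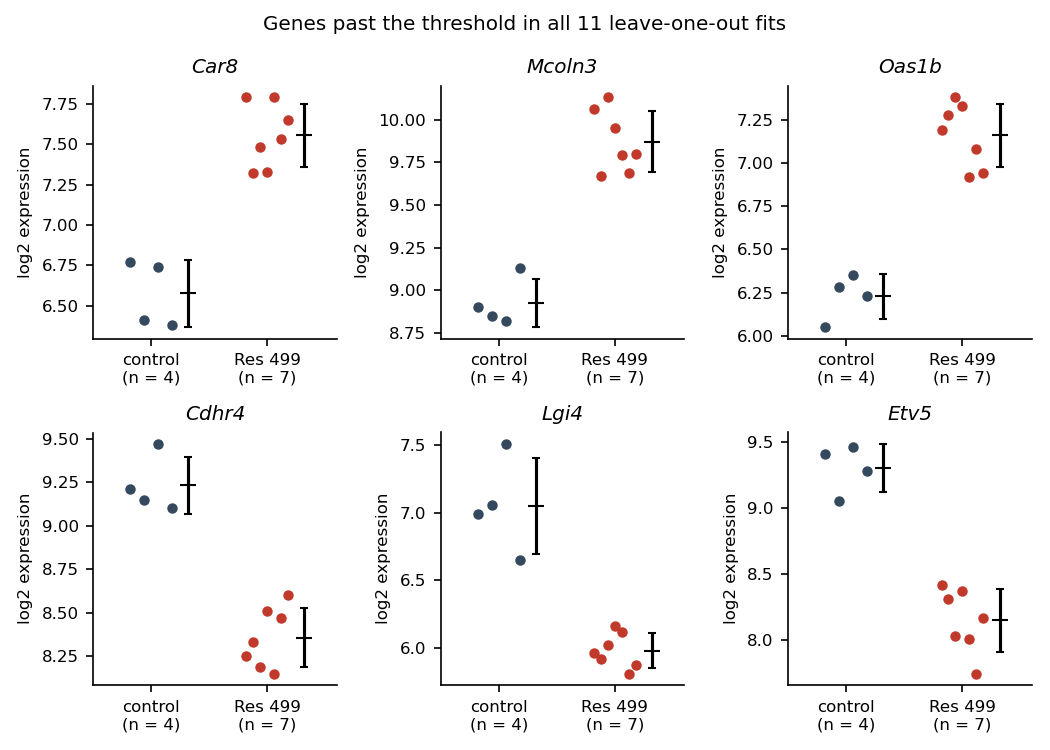
Log2 expression of the 6 genes that passed the test in every leave-one-out fit, with 1 point per tumour and a bar for the mean ± SD of each group. No Res 499 point of these genes lies within the range of the control points, as for Mcoln3 with 9.67 to 10.13 against 8.82 to 9.13.

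Among interferon-induced genes, Oas1b, Ifi27 and Cxcl10 rose. Oas1b belongs to the oligoadenylate synthetase family, which senses double-stranded RNA, and has close paralogs whose transcripts an array may not separate fully. Its levels were 6.05, 6.28, 6.35 and 6.23 in control tumours and 6.92, 7.19 and 7.38 as the lowest, median and highest in Res 499. The difference of 0.93 (SE 0.10, limma adjusted p = 0.00445) was several times the spread within either group. Cxcl10, a chemokine that attracts T cells through the receptor CXCR3, stood at 8.17, 7.61, 8.32 and 8.90 in control tumours and at 8.93, 9.76 and 10.05 as the lowest, median and highest in Res 499. Control tumour 5 was almost as high as the lowest Res 499 tumour, and the change was 1.33 (SE 0.25, limma adjusted p = 0.0482), or 2.51-fold. Ifi27, an interferon-induced membrane protein, rose by 0.81. Rtp4, an interferon-induced chaperone of receptor transport, missed the threshold with a change of 1.40 (limma adjusted p = 0.0513) although all 7 Res 499 tumours were above the controls.

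The promoter of Cxcl10 is shown because, of the 18 genes that rose and had a promoter sequence, it alone held the core of the interferon-stimulated response element. Oas1b and Ifi27 were not among those 18 and were not searched. The motif searched was GAAA, any 2 bases and GAAA again, on both strands, in the 250 bases before the start of each gene in RefSeq (GRCm38.p6). The stretch lies at chr5:92349043-92349139 on the minus strand and is written 5′ to 3′ along the gene, with the motif in capitals 213 bases before the start:
Cxcl10: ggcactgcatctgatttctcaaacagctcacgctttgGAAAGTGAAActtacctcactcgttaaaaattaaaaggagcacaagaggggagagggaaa
The motif was found in 396 of the 12946 tested genes that had a promoter sequence (3.06%), in 1 of 18 genes that rose and in 0 of 26 genes that fell. Among the listed type I interferon-stimulated genes it was found in 9 of 18 (50%), and among the interferon-gamma-induced genes in 8 of 14 (57.1%). A match is a description of these letters and does not show that a factor binds there.

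The wider interferon programme was higher on average in Res 499 tumours, but few of its genes passed the test. Of 25 type I interferon-stimulated genes 24 had changes above 0. As higher 2 passed the test (Oas1b and Ifi27), against 0.144% of all genes. Non-overlapping ranges were seen in 5, all of them higher, against 1.23% of all genes with higher ranges. The other 3 of these, named after their values were seen, were Rtp4, Herc6 with a change of 0.77 and Xaf1 with a change of 1.06 (limma adjusted p = 0.0843 for each of the last pair). The median change of the list was 0.72, against 0.01 over all genes. Irf7, a transcription factor of the interferon response, had a change of 0.83 (limma adjusted p = 0.182), and Ifit1, an antiviral RNA-binding protein, a change of 0.69 (limma adjusted p = 0.461). Usp18, a protease that dampens interferon signalling, had a change of 1.25 (limma adjusted p = 0.177). All 19 interferon-gamma-induced genes had changes above 0, with a median of 0.79, but Cxcl10 alone passed. Its neighbours in function varied widely: Cxcl9 had a change of 0.73 with an SE of 0.90 (limma adjusted p = 0.797), the transcription factor Irf1 one of 0.48 (limma adjusted p = 0.663) and Igtp, an interferon-induced GTPase, one of 1.34 (limma adjusted p = 0.549). All 15 genes of MHC class I presentation had changes above 0 with a median of 0.41, and 0 passed. The immunoproteasome subunit Psmb9 had the highest of these, 1.22 (limma adjusted p = 0.323).

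Cd274, which encodes PD-L1, stood at 7.77, 7.70, 7.91 and 8.29 in control tumours and at 8.18, 8.54 and 9.12 as the lowest, median and highest in Res 499. Of the 7 Res 499 tumours 5 were above every control, and the change of 0.70 (SE 0.19) did not pass (limma adjusted p = 0.138). Pdcd1lg2, the other PD-1 ligand, had a change of 0.02 (limma adjusted p = 0.940). Of 14 checkpoint ligands 11 had changes above 0, with a median of 0.14.

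Markers of leukocytes also varied between the tumours. In bulk tissue, more cells of a type and more RNA per cell cannot be told apart. The mean of 5 leukocyte genes (Ptprc, Cd53, Laptm5, Coro1a and Cd52), relative to the control mean, was 0.23, -0.14, -0.16 and 0.06 in control tumours 2 to 5 and 1.28, 1.68, 1.71, 0.29, 1.39, 0.20 and -0.39 in Res 499 tumours 1 to 7. Res 499 tumours 1, 2, 3 and 5 were thus rich in these transcripts and tumours 4, 6 and 7 were not. The mean of the type I interferon list was 0.90, 1.18, 1.24, 0.91, 0.57, 0.02 and 0.06 in Res 499 tumours 1 to 7. It was high in tumours 1, 2 and 3 and low in tumours 6 and 7, as the leukocyte mean was, but tumour 4, low in leukocyte transcripts, had a higher interferon mean than tumour 5. All 19 macrophage and monocyte markers had changes above 0 (median 0.84), led by Lyz1 at 1.54 (limma adjusted p = 0.234), and 0 passed the test. Their mean ranged from -0.12 to 0.33 in control and from -0.27 to 1.80 in Res 499 tumours. Of 13 T cell markers 12 were above 0 (median 0.20), with means of -0.08 to 0.16 and -0.10 to 0.58, and 0 passed. With the 5-gene leukocyte mean as a covariate in the fit, the median change of the type I list was 0.25, of the interferon-gamma list -0.15, of the MHC class I list -0.07 and of the macrophage markers 0.02. The changes of Irf1, Cxcl9 and Igtp turned to -0.31, -1.13 and -0.29 in that fit. Oas1b (0.86), Ifi27 (0.76) and Cxcl10 (1.14) had changes near those without the covariate, of which Oas1b passed (limma adjusted p = 0.0199) and Ifi27 and Cxcl10 did not (limma adjusted p = 0.109 and 0.137). Rtp4 had 0.95, and Cd274 had 0.41. Beyond this fit, the part of leukocyte content in the list changes was not tested.

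**Figure D3:**
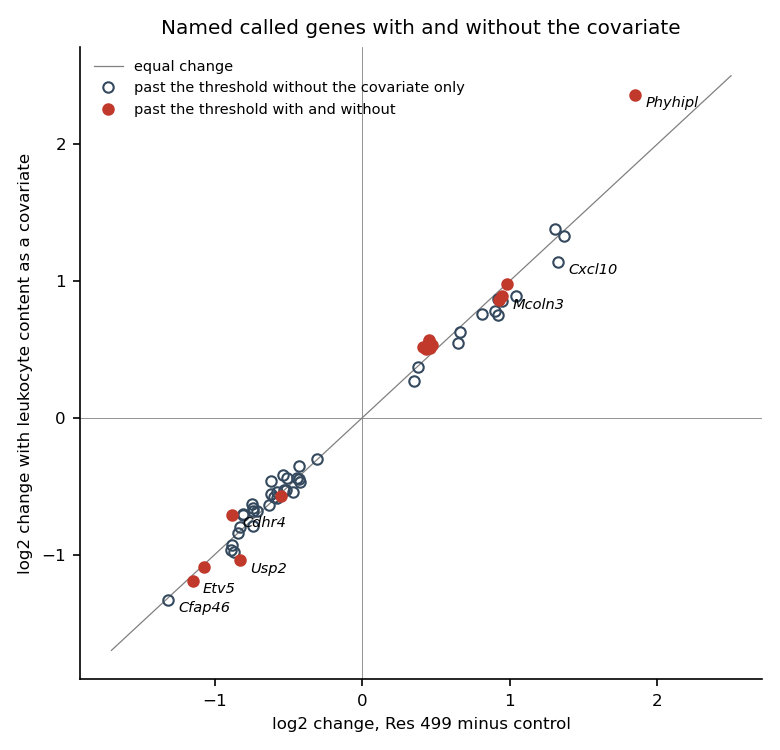
Change of each named gene that passed the test without (x axis) and with (y axis) the leukocyte mean as a covariate, both on the log2 scale, with filled points for genes that passed both ways and a line of equal change. Counted with the predicted models, which are not drawn, all 59 genes kept their direction and 55 kept more than 80% of their size.

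Over all genes the fit with the leukocyte covariate had 27 genes past the threshold, of which 17 were among the 59. These were the 6 genes that passed in every leave-one-out fit, Garem1, Atp6v0b, Abhd3, Csrnp2, Phyhipl, Usp2, Cdk2, Rab38, Tmem51 and 2 predicted models. All 59 kept their direction in it, and Phyhipl moved the farthest, from 1.85 to 2.36.

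Among targets of MAPK signalling Etv5 fell, and most others had changes below 0 that did not pass the test. Etv5, an ETS transcription factor switched on by this cascade, stood at 9.41, 9.05, 9.46 and 9.28 in control tumours and at 7.75, 8.17 and 8.42 as the lowest, median and highest in Res 499. The groups were far apart, and the change was -1.15 (SE 0.13, limma adjusted p = 0.00445), or 2.22-fold lower. A dimmer probe set of Etv5, with a mean of 5.40, had a change of -0.11 (SE 0.05). Of 18 listed genes of MAPK output 15 had changes below 0, 1 passed the test (Etv5) and 4 had ranges wholly below the controls, against 1.15% of all genes. The other 3 were feedback inhibitors, named after their values were seen, and none passed the test. Spry4 stood at 9.95, 9.45, 9.63 and 9.57 in control and from 8.77 to 9.34 in Res 499 tumours, with a change of -0.56 (limma adjusted p = 0.0843). Spred1 had a change of -0.34 (limma adjusted p = 0.0805) and Spred3 one of -0.36 (limma adjusted p = 0.0915). Levels of Etv1 (-0.38), Etv4 (-0.35) and Spry2 (-0.26) were below all controls in 6 of 7 Res 499 tumours each, without passing. Dusp6, a phosphatase of ERK, had a change of -0.13 (limma adjusted p = 0.719), and Dusp5 had the highest change of the list, 0.21 (limma adjusted p = 0.50).

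The mean of the MAPK list, relative to the control mean, was -0.03, -0.10, 0.04 and 0.09 in the control tumours and between -0.39 and -0.16 in Res 499. All 7 Res 499 tumours lay below all 4 controls. Without Etv5, a choice made after seeing the data, the mean of the other 17 genes was -0.09 to 0.10 in control and -0.36 to -0.12 in Res 499 tumours. The median change of the list was -0.25, and -0.23 with the leukocyte covariate. Garem1, an adaptor that links growth factor receptors to ERK, fell by 0.55 and Map4k4, a kinase of the JNK branch, by 0.31. Erbb3, a receptor of neuregulin in the neural crest lineage, missed the threshold with a change of -1.01 (limma adjusted p = 0.0526), with all 7 tumours below the controls.

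**Figure D4:**
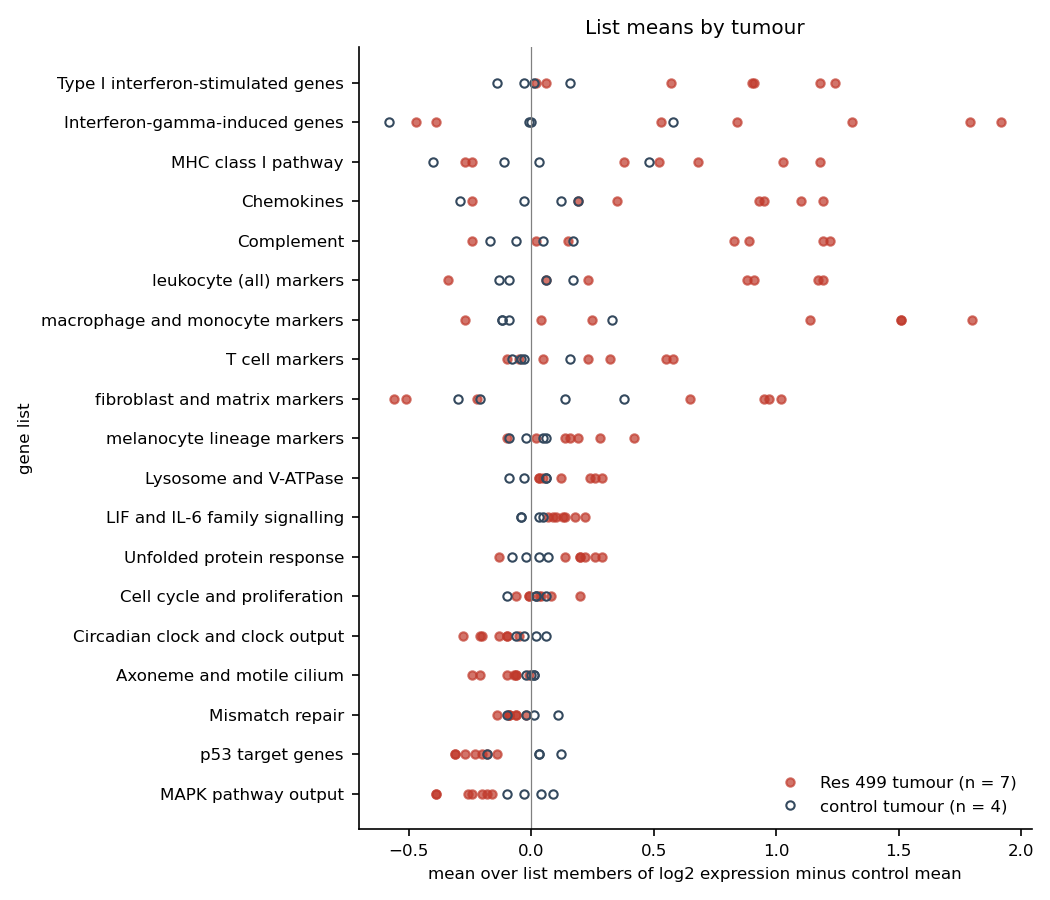
Mean log2 expression of selected gene lists in each tumour relative to the control mean, with 1 point per tumour. The MAPK output means of Res 499 tumours (-0.39 to -0.16) lie below those of the controls (-0.10 to 0.09), whereas the macrophage marker means of Res 499 (-0.27 to 1.80) span the control range.

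Mcoln3 and some other genes that rose encode proteins known from the endosome, lysosome or melanosome, a grouping made after their values were seen. The others included Atp6v0b, a membrane subunit of the proton pump that acidifies these organelles (0.47), and the cathepsin proteases Ctso (0.65) and Ctsd (0.35). Rab38, a GTPase that sorts pigment enzymes to melanosomes (0.45), was the last of them. Cathepsin Ctsf went the other way and fell by 0.42. So did 3 genes of endosomal membranes and endocytosis described below, Ehd3 (-0.87), Hip1 (-0.63) and Snx25 (-0.54). Genes of these organelles that passed thus went both ways. Rab5b, a GTPase of early endosomes, missed the threshold with a change of 0.41 (limma adjusted p = 0.0513). A dimmer probe set of Nceh1 had a change of 0.11 (SE 0.07). Of 33 listed lysosome and proton pump genes 25 had changes above 0, with a median of 0.14, and 0.06 with the leukocyte covariate. Of these, 1 passed the test as higher (Ctsd) and 1 as lower (Ctsf), and 3 had ranges above the controls, against 1.23% of all genes. The other 2 of these were Hexa, a lysosomal hexosaminidase (0.35), and the cathepsin Ctsz (0.21), both named after their values were seen. Atp6v0b and Ctso, which also passed as higher, were not on this list and are not in its counts. Atp6v0d2, a proton pump subunit, had the highest change of the list, 0.82 with an SE of 0.41 (limma adjusted p = 0.426), and 0.13 with the covariate.

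Promoters of genes that rose with the E-box letters CACGTG, the core of sites known for MITF and TFEB, are shown because MITF drives pigment genes and TFEB drives lysosome genes. Each stretch ends at or before the gene start (RefSeq, GRCm38.p6), is written 5′ to 3′ along the gene and has each motif in capitals. Atp6v0b lies at chr4:117887330-117887415 on the minus strand with 2 motifs, Nceh1 at chr3:27182928-27183003 on the plus strand with 1, and Ctsd at chr7:142387870-142388077 on the minus strand with 2:
Atp6v0b: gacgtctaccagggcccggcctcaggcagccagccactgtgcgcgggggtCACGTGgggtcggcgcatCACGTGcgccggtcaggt
Nceh1: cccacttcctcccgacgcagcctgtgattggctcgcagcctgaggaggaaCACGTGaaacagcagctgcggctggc
Ctsd: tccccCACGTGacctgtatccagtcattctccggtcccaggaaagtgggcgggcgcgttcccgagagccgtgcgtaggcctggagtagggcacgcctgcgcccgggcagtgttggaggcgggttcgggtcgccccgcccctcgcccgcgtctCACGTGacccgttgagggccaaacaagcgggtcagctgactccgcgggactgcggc
Within 250 bases before the start, on both strands, CACGTG was found in 1171 of 12946 tested genes (9.05%), in these 3 of 18 genes that rose (16.7%) and in 3 of 26 that fell (Mtss2, Kcnn4 and Ctsf, 11.5%). In the lysosome list it was found in 10 of 25 promoters (40%).

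Among the pigment genes themselves 1 passed the test. Of 19 melanocyte lineage and pigment genes 15 had changes above 0, with a median of 0.11, and the gene that passed was Rab38. Trpm1, a channel of pigment cells, had the highest change, 0.81 (limma adjusted p = 0.239). Sox10, a lineage transcription factor, had the lowest, -0.26 (limma adjusted p = 0.196), at 11.03 to 11.23 in control and 10.70 to 11.04 in Res 499 tumours. Among 26 genes of the neural crest, dedifferentiation and the mesenchymal state 13 were above 0, the median was -0.01, and 0 passed. Tnc, a matrix protein, was highest there at 0.97 with an SE of 0.61 and turned to -0.37 with the leukocyte covariate.

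Outside these groups, the highest changes included those of Phyhipl and Gxylt2, of the cell surface proteins Lpar4, F11r and Lifr, and of the secreted protease Plau. Phyhipl, a protein related to an interactor of the peroxisomal phytanoyl-CoA hydroxylase, stood at 6.21, 5.27, 6.10 and 6.13 in control tumours and at 6.99, 7.81 and 8.60 as the lowest, median and highest in Res 499. Control tumour 3 was well below the other controls, and the change was 1.85 (SE 0.31, limma adjusted p = 0.0379), or 3.61-fold. Another probe set of Phyhipl was near the bottom of the scale (mean 3.44) and had a change of -0.01. Gxylt2, which adds xylose to the sugar chains of Notch receptors, stood at 8.27, 7.24, 8.04 and 8.64 in control tumours and at 9.00, 9.46 and 9.81 as the lowest, median and highest in Res 499. Its change was 1.37 (SE 0.23, limma adjusted p = 0.0379), again with control tumour 3 as the lowest. Of 31 Notch pathway genes Gxylt2 alone passed, against 0.144% of all genes as higher. Of these 31, 15 were above 0 and the median was -0.02. The ligand Jag1 had the lowest change there, -0.59 (limma adjusted p = 0.249).

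Lpar4, a receptor for lysophosphatidic acid, stood at 7.29, 6.67, 6.80 and 7.09 in control tumours and at 7.26, 8.43 and 8.68 as the lowest, median and highest in Res 499. Res 499 tumour 2 alone lay within the control range, and the change was 1.31 (SE 0.24, limma adjusted p = 0.0435). Plau, the urokinase that activates plasminogen, stood at 7.23, 7.16, 7.43 and 7.28 in control tumours and at 7.86, 8.25 and 9.01 as the lowest, median and highest in Res 499. The tight control values lay below all Res 499 tumours, with a change of 1.04 (SE 0.19, limma adjusted p = 0.0438). Plau was the single one of 25 urokinase, plasmin and matrix protease genes to pass, 17 of which had changes above 0.

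F11r, the junctional adhesion molecule JAM-A, stood at 8.18, 7.14, 7.72 and 7.46 in control tumours and at 8.38, 8.50 and 8.85 as the lowest, median and highest in Res 499. The groups were apart by a small margin, with a change of 0.95 (SE 0.17, limma adjusted p = 0.0427). Lifr, the receptor subunit for leukaemia inhibitory factor, stood at 7.34, 6.46, 6.72 and 6.90 in control tumours and at 7.55, 7.76 and 8.04 as the lowest, median and highest in Res 499. Its change was 0.92 (SE 0.14, limma adjusted p = 0.0274). In LIF and IL-6 family signalling 1 of 18 genes passed, Lifr itself, against 0.144% of all genes as higher. In that list 13 genes were above 0 with a median of 0.04, and the list mean was -0.04 to 0.05 in control and 0.07 to 0.22 in Res 499 tumours. Without Lifr these ranges overlapped, at -0.03 to 0.03 and 0.01 to 0.17.

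Prkcq, a protein kinase C isoform best known for its role in T cell receptor signalling, stood at 8.15, 7.92, 8.11 and 8.39 in control tumours and at 8.74, 9.02 and 9.36 as the lowest, median and highest in Res 499. Its change was 0.90 (SE 0.12, limma adjusted p = 0.0126), and 0.78 with the leukocyte covariate. Of 10 kinase C isoforms 5 were above 0, and Prkcq alone passed. H2ac15, a histone H2A gene, stood at 4.98, 5.62, 5.64 and 5.33 in control tumours and at 5.74, 6.44 and 6.55 as the lowest, median and highest in Res 499. The groups barely separated, with a change of 0.92 (SE 0.16, limma adjusted p = 0.0435), and near-identical histone genes make its identity uncertain. Of 14 histone genes 13 were above 0 with a median of 0.23, from H4c9 at -0.43 to H1f5 at 1.11 (limma adjusted p = 0.125 for H1f5), and H2ac15 alone passed.

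Genes that fell are given here by their known roles, a grouping made after their values were seen. Cfap46, a protein of motile cilia, stood at 8.21, 7.96, 8.10 and 7.09 in control tumours and at 6.20, 6.48 and 6.92 as the lowest, median and highest in Res 499. Control tumour 5 lay near the Res 499 tumours, and the change was -1.32 (SE 0.19, limma adjusted p = 0.0176), or 2.49-fold lower. Of 22 genes of motile cilia 9 were above 0, the median was -0.01 and Cfap46 alone passed. Ranges wholly below the controls were seen in 2 of them, against 1.15% of all genes. The other was Odf3l1, named after its values were seen, with a change of -1.22 (limma adjusted p = 0.0573).

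Sema6a, a membrane-bound semaphorin that guides axons and migrating cells, stood at 8.31, 7.88, 8.70 and 8.29 in control tumours and at 7.08, 7.32 and 7.74 as the lowest, median and highest in Res 499. It was lower in all 7, with a change of -0.89 (SE 0.17, limma adjusted p = 0.0482). Among 39 semaphorin, plexin and axon guidance genes Sema6a alone passed, against 0.210% of all genes as lower, and 15 were above 0. Plxnc1, a plexin receptor, had the highest change there, 1.29 (limma adjusted p = 0.0526), with 6 of 7 tumours above the controls.

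Ehd3, an ATPase that shapes endosomal membranes, stood at 11.12, 10.96, 11.55 and 10.63 in control tumours and at 9.89, 10.26 and 10.54 as the lowest, median and highest in Res 499. The change of Ehd3 was -0.87 (SE 0.16, limma adjusted p = 0.0482), with control tumour 5 near the Res 499 range. Gpc6, a heparan sulfate proteoglycan of the cell surface, stood at 8.65, 8.30, 8.97 and 7.98 in control tumours and at 7.38, 7.61 and 7.87 as the lowest, median and highest in Res 499. Its change was -0.84 (SE 0.16, limma adjusted p = 0.0482), with control tumour 5 again the closest. Mtss2, a membrane-bending protein, stood at 9.24, 9.12, 9.39 and 9.10 in control tumours and at 7.86, 8.42 and 8.73 as the lowest, median and highest in Res 499. The groups were apart, with a change of -0.81 (SE 0.13, limma adjusted p = 0.0362).

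Other proteins of the cytoskeleton, adhesion and membrane traffic fell by less. The focal adhesion protein Tns2 fell by 0.74, the formin Fmnl2, which elongates actin filaments, by 0.52, the endocytic adaptor Hip1 by 0.63, the sorting nexin Snx25 by 0.54, the kinesin-related Kif26a by 0.53 and Inka2, an inhibitor of a PAK kinase, by 0.43. The neural adhesion proteins Lrrc4b and Pcdhb12 fell by 0.74 and 0.75, the latter from a cluster of similar genes that an array may not separate fully. Farp1, a guanine nucleotide exchange factor, missed the threshold at -0.57 (limma adjusted p = 0.0520). Fscn1, which bundles actin, went the other way with a change of 1.24 (limma adjusted p = 0.0878). Gli3, a transcription factor of the Hedgehog pathway, had a change of -0.55 (limma adjusted p = 0.257) with all 7 Res 499 tumours below the controls, and 0 of 21 primary cilium and Hedgehog genes passed.

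Kcnn4, a calcium-activated potassium channel, stood at 9.80, 9.51, 9.96 and 9.92 in control tumours and at 8.61, 8.86 and 9.43 as the lowest, median and highest in Res 499. The change of Kcnn4 was -0.83 (SE 0.14, limma adjusted p = 0.0383). Of 28 potassium channel genes Kcnn4 alone passed, against 0.210% of all genes as lower. Lpin1, a phosphatidate phosphatase of lipid synthesis, stood at 9.85, 10.13, 9.94 and 9.54 in control tumours and at 8.66, 9.20 and 9.29 as the lowest, median and highest in Res 499. Every Res 499 tumour was below the controls, with a change of -0.81 (SE 0.14, limma adjusted p = 0.0379). Agpat4, an acyltransferase that makes phosphatidate, fell by 0.71, while Abhd3, a phospholipase, rose by 0.46. Of 36 listed triglyceride, phosphatidate and lysolipid genes 20 had changes above 0, with a median of 0.06. As higher 2 passed (Phyhipl and Lpar4), against 0.144% of all genes, and as lower 2 (Lpin1 and Agpat4), against 0.210%. The role given above for Phyhipl is not in these lipids. In second messenger signalling Pde9a, which degrades cyclic GMP, fell by 0.58, Akap12, a scaffold of protein kinase A, by 0.60 and Plcb4, a phospholipase C, by 0.43. Pde8a, which degrades cyclic AMP, missed the threshold with a change of 1.17 (limma adjusted p = 0.0513).

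In the lists of mismatch repair, cell cycle and p53 target genes 1 gene each passed the test. Mlh3, a protein of mismatch repair and meiosis, stood at 8.74, 8.80, 8.71 and 8.67 in control tumours and at 7.55, 7.69 and 8.28 as the lowest, median and highest in Res 499. The control values were tight and all Res 499 tumours were lower, with a change of -0.88 (SE 0.13, limma adjusted p = 0.0227). Of 15 mismatch repair genes Mlh3 alone passed, against 0.210% of all genes as lower. Changes above 0 were seen in 6 of the 15, and the median was -0.01. Cdk2, a kinase of the S phase entry, rose by 0.45, and of 36 cell cycle genes 18 were above 0 with a median of 0.01. Mki67, a marker of cycling cells, had a change of -0.09 (limma adjusted p = 0.824). Ccnjl, a cyclin-like protein, missed the threshold at -0.56 (limma adjusted p = 0.0513).

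Zmat3, an RNA-binding product of a p53 target gene, fell by 0.62 (limma adjusted p = 0.0323). Cdkn1a, the p21 inhibitor of cyclin-dependent kinases and a p53 target, missed the threshold with a change of -0.71 (limma adjusted p = 0.0573), with all 7 tumours below the controls. Polk, a translesion DNA polymerase named after its values were seen, was the third p53 target with ranges apart, with a change of -0.63 (limma adjusted p = 0.0843). Ranges wholly below the controls were thus seen in 3 of 20 p53 targets, against 1.15% of all genes. Of 20 p53 targets 12 had changes below 0, with a median of -0.13 and the lowest for Trp53inp1 at -0.86 (limma adjusted p = 0.114). The mean of the list, relative to the control mean, was -0.18 to 0.12 in control and -0.31 to -0.14 in Res 499 tumours, of which 6 lay below all controls, and 5 did without Zmat3 in the mean.

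Usp2, a ubiquitin-specific protease whose transcript cycles with the circadian clock, stood at 8.74, 8.94, 8.91 and 8.80 in control tumours and at 7.53, 8.18 and 8.31 as the lowest, median and highest in Res 499. The change of Usp2 was -0.83 (SE 0.14, limma adjusted p = 0.0410), and -1.04 with the leukocyte covariate. Of 19 genes of the clock and its output 7 were above 0 and Usp2 alone passed. Their median change was -0.13, and 0 with the leukocyte covariate. The list mean, Usp2 included, was -0.06 to 0.06 in control and -0.28 to -0.05 in Res 499 tumours, of which 6 lay below all controls. Usp2 was picked by the test on these same tumours, and the mean without it was not taken. The count of 6 therefore does not describe the other clock genes alone. Per1, named after its values were seen, had a change of -0.61 (limma adjusted p = 0.212). Dbp, another clock output, had a change of 0.00 (limma adjusted p = 0.992). Of 38 ubiquitin-specific proteases 8 were above 0, with a median of -0.10.

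The other genes that passed were more varied. Higher were Tmcc3, a protein of the endoplasmic reticulum (0.66), Csrnp2, a nuclear protein (0.43), and Tmem51 (0.41). Lower were Six4, a homeobox transcription factor (-0.44), Irf2bpl, a nuclear regulator (-0.51), Apobec2, a member of the cytidine deaminase family (-0.47), Hkdc1, a hexokinase-like enzyme (-0.74), Fbxl7, a subunit of a ubiquitin ligase (-0.62), and Fam117b (-0.58). A further 2 genes that passed are predicted models and are counted without a name. Smagp, a small membrane glycoprotein, and Prrg4, a vitamin K-dependent membrane protein, missed the threshold with changes of 0.78 (limma adjusted p = 0.0526) and 0.90 (limma adjusted p = 0.0513).

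**Figure D5:**
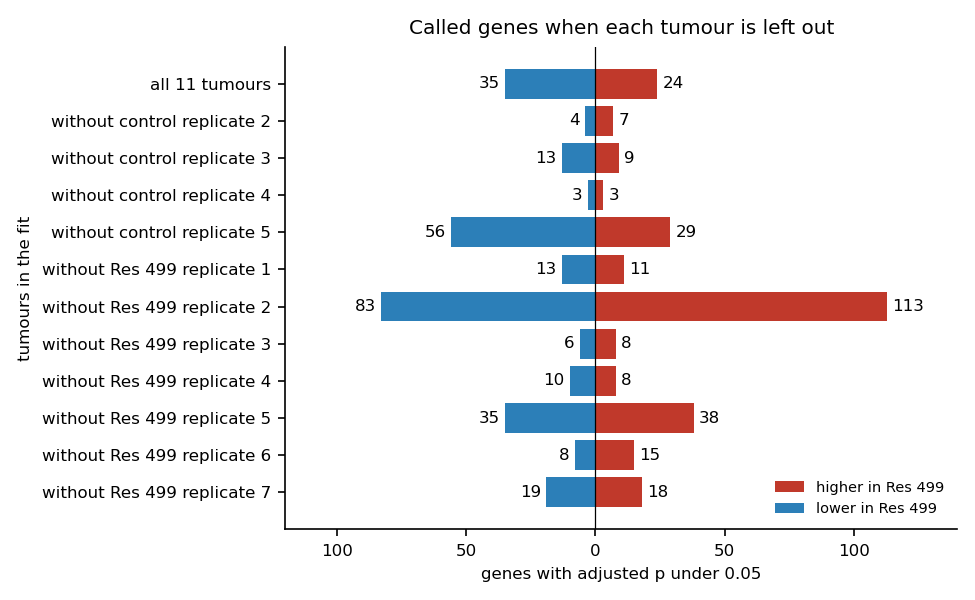
Number of genes past the threshold, higher and lower, in all 11 tumours and with each tumour left out in turn. The number runs from 6 without control tumour 4 to 196 without Res 499 tumour 2, around 59 with all tumours.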

How the data were processed

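Total RNA of the tumours was measured on Affymetrix whole-transcript arrays. The deposited values are log2 expression values that the authors obtained by RMA, using oligo, according to the submitters' processing notes. Tool versions, genome build and probe annotation are not given in the sources used, and the range of the values gave the log2 scale. Control tumour 1 and 1 Res 177 tumour were on another array design, normalized separately, and were not used. Tumour numbers follow the order of the samples and only name a tumour.

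Of 41345 probe sets 23521 had 1 gene symbol in the platform annotation, 1814 had several and 16010 had none. Each gene was represented by its probe set of highest mean over the 12 arrays, which gave 22180 genes, and the 5545 lowest (25%) were left out. The 16635 others entered limma 3.58.1 (lmFit, then eBayes; R 4.3.3) in a fit of 3 groups (4 control, 7 Res 499, 1 Res 177), with Benjamini-Hochberg adjustment and a threshold of 0.05. The fit was also run on simulated data with independent noise for each gene. That run checks only the working of the fit and does not bear on the calls in these tumours.

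Gene lists were described by counts and medians, without a test. The comparison, the lists and the genes named were chosen with earlier results of these data known. The rule named all genes past the threshold except predicted models, per-tumour values for the 12 largest changes each way and for genes that passed in every leave-one-out fit, the called and most changed members of lists, 17 chosen genes and the 8 nearest the threshold. Some of the chosen genes are not reported here. In the report the most changed member is named for only some of the lists described. Alternatives covered the filter, probe set choice, normalization, eBayes prior, array weights, leukocyte content, threshold and each tumour left out. Precision is limited by how many tumours there were.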

Additional observations from a re-analysis of the deposited data

Results flagged for a closer look

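In 350 groups of values, 1 for each named gene or list and each group of tumours, the highest or lowest tumour was compared with the others by Dixon's criterion at the 95% level, which flags about 1 group in 20 by chance. It singled out 28. Among genes in control tumours these were Atp6v0b at 11.40 and Snx25 at 8.81 in tumour 5, Kcnk6 at 7.31 in tumour 5, Phyhipl at 5.27 and Kif26a at 7.19 in tumour 3, Hkdc1 at 7.41, Ccnjl at 8.08 and Farp1 at 10.28 in tumour 4, and Irf2bpl at 9.34 and Rab5b at 10.67 in tumour 2.

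Among genes in Res 499 tumours, tumour 5 stood apart for Fmnl2 at 9.00, Plxnc1 at 9.09, Etv4 at 6.87, Polk at 7.90 and a predicted gene model at 6.89. Tumour 2 stood apart for Six4 at 7.12, Pde9a at 5.50, Lpar4 at 7.26 and Fscn1 at 7.72, where the next lowest tumour had 9.10. Tumour 7 stood apart for Abhd3 at 7.10 and tumour 3 for Spred3 at 7.27.

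Among list means relative to the control mean, control tumour 2 stood apart for macrophage and monocyte markers at 0.33, control tumour 3 for homologous recombination and Fanconi genes at 0.19, control tumour 4 for glypicans, syndecans and heparan sulfate synthesis at 0.07 and control tumour 5 for NK and cytotoxic markers at 0.21. Res 499 tumour 5 stood apart for the unfolded protein response at -0.13, for ubiquitin-specific proteases at -0.26 and for adipocyte markers at 1.66, where the next tumour had 0.32.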

How the results depend on the processing

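Of the 59 genes, 0 changed direction under any alternative in which they were tested. Where the group ranges were apart, leaving out a tumour could not have reversed the direction, so those fits do not test it. The count of 59 (24 higher, 35 lower) became 39 (21 lower) with arrays centred on their median, 27 (8 lower) with leukocyte content as a covariate, 356 (176 higher, 180 lower) with array weights and 229 (118 higher, 111 lower) at an adjusted p of 0.10, and 38 were higher with the lowest 50% of genes left out. Each tumour left out in turn gave 6 to 196 genes, 3 to 113 of them higher and 3 to 83 lower. Control tumours left out gave 11 (tumour 2), 22 (tumour 3), 6 (tumour 4) and 85 (tumour 5). Res 499 tumours left out gave 24, 196, 14, 18, 73, 23 and 37 for tumours 1 to 7. The cause of these differences was not tested. With leukocyte content as a covariate the change turned to -0.31 for Irf1, -1.13 for Cxcl9, -0.29 for Igtp, -0.19 for Tgfbi, -0.37 for Tnc and -0.07 for Pdcd1lg2, none of which had passed the test. Changes near 0 also crossed it: Pdcd1lg2 ran from -0.02 to 0.07 and Dbp from -0.05 to 0.06 with each tumour left out. Pdcd1lg2 reached 0.00 and -0.02 without control tumour 2 and Res 499 tumour 1, and Dbp reached -0.01 with repeated quantile normalization and -0.01, 0.00, -0.05, -0.01 and -0.04 without control tumours 3 and 5 and Res 499 tumours 4, 6 and 7. No paired analysis was possible because the labels do not link any Res 499 tumour to a control tumour.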

Other observations

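Gene lists outside the themes above had few or no genes past the threshold. Of 25 oxidative phosphorylation genes 23 had changes above 0 (median 0.08), of 25 unfolded protein response genes 21 (median 0.17, highest for Ddit3 at 0.53) and of 23 NRF2 and glutathione genes 18 (median 0.12), and 0 passed in each. Of 24 cholesterol and fatty acid synthesis genes 4 were above 0 (median -0.13, and -0.03 with the leukocyte covariate), with Lss, the lanosterol synthase, lowest at -0.39, and of 29 hypoxia and glycolysis genes 7 were above 0 (median -0.06). Fibroblast and matrix markers had a median change of 0.28 over 15 genes, and -0.36 with the leukocyte covariate.

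Along the chromosomes, 16593 tested genes could be placed in order by RefSeq. The median change in 800 windows of 40 neighbouring genes lay between -0.11 and 0.15, and the median per chromosome between -0.02 and 0.03.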
